A study of Mus musculus with 12 samples.

Results

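SINEs (short interspersed nuclear elements) are the short, non-coding retrotransposons of the mouse genome, and 32 of the 1217 classes in the repeat expression table belong to them. They were taken by name, as every class starting with B1, B2, B3, B4, ID, PB1, RSINE or MIR. They fall into 6 families, with 10 B1 classes, 4 PB1 classes, 5 B2 and B3 classes, 4 classes around B4 (B4, B4A, RSINE1 and ID_B1), 4 ID classes and 5 MIR classes. All 32 passed the filter on low values, as did 939 of the 1217 classes. The 12 mRNA-seq libraries came from Tet2 knockout mouse embryonic stem cells (ESCs) that carried a PiggyBac transgene, encoding either wild-type TET2 (WT) or TET2 with the catalytic mutations H1304Y and D1306A (mutant). Each line was grown in serum with LIF (primed) or in 2i, a medium with inhibitors of MEK and GSK3 (naïve), which gave 4 groups of 3 libraries. Every library, controls included, came from cells infected with a lentiviral shRNA against Setdb1 and selected from 48 hours after infection for 3 days in 1 µg/ml puromycin, so that the groups share Tet2 loss from its own locus, a TET2 transgene and the Setdb1 shRNA. Libraries with a control shRNA were not analysed here, so the depth of the Setdb1 knockdown could not be measured, and the transgenic lines may differ in transgene copies or position.

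B1 and PB1 descend from 7SL RNA, the RNA of the signal recognition particle. B2, B3, ID and MIR descend from tRNA or tRNA-like genes, and B4 and RSINE1 combine tRNA-derived and 7SL-derived parts. A SINE is transcribed by RNA polymerase III (Pol III) from an internal promoter with an A box and a B box, and spreads with the enzymes of LINE-1 elements. Many copies also lie in introns and untranslated ends of genes and are then read as part of the host's RNA polymerase II transcript. In ESCs, histone H3K9 methylation and DNA methylation have both been studied as controls of SINEs.

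The sequences below show the Pol III promoter boxes that the families share. They were read from NCBIM37 (mm9), the build of the deposited tables, and the gene name BC1 is that of RefSeq. In BC1, the neuronal Pol III RNA from which ID elements descend, and in the run of B2 bases, the first capitals mark the A box. In BC1 the second capitals, and in the run of B1 bases the capitals, mark the B box. In BC1 the boxes were placed by the best match to the general Pol III box. The B1 and B2 runs were selected for an exact match, for B1 to the B box without its first letter. Their boxes are thus present by selection, and a match is a description of letters, not of use.
B1, chr19:3585386-3585435, plus strand: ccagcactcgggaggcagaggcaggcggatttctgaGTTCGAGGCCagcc
BC1, chr7:152100375-152100454, plus strand: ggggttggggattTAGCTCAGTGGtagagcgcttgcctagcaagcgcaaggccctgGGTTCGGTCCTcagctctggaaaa
B2, chr19:3832529-3832578, plus strand: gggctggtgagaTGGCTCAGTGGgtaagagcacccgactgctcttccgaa

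The B1 and B2 runs are the most frequent 50-base runs around their box on chromosome 19, found 105 and 152 times over both strands, and the positions are those of the first copy. Both of these copies lie in introns, of Lrp5 and of Gm16066, on the strand opposite to the gene. The runs name the kind of element only, because the class of a single copy was not analysed here.

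The repeat table held 3156928 to 13718028 reads per library and the table of genes between 8066662 and 21335933. The 2 rRNA classes took 68.8% to 88.1% of the repeat reads in 10 libraries, but 37.7% in WT naïve replicate 3 and 46.7% in mutant primed replicate 3, and these 2 libraries stand apart in what follows. The Tet2 gene, whose reads include the transgene, was at 12.73, 13.09 and 14.00 in WT naïve and at 10.60, 10.81 and 11.95 in mutant naïve replicates 1 to 3. In primed cells it was at 14.81, 14.58 and 15.09 in WT and at 12.50, 13.20 and 13.27 in mutant. Tet2 was thus higher in WT than in mutant in both media, by 2.16 ± 0.34 (SE, adjusted p = 0.0154, limma) in naïve and 1.84 ± 0.34 (adjusted p = 0.0297) in primed cells. The lines compared below therefore differ in the amount of Tet2 RNA as well as in the catalytic mutations. For the protein, the paper reports like amounts of WT and mutant TET2 in the rescue lines by Western blot. Setdb1 differed by 0.13 ± 0.25 in naïve cells (adjusted p = 0.857) and 0.16 ± 0.25 in primed cells (adjusted p = 0.789). The 5 ESC markers (Pou5f1, Sox2, Nanog, Esrrb and Zfp42) were abundant in every library, with at least 1061 reads each, and the 3 collagen genes used as fibroblast markers summed to less than 1 read per 1000000 gene reads. Dnmt3b, Dnmt3l and Otx2, used as markers of serum culture, were lower in naïve cells of both lines. Of the 3 genes used as markers of 2i, Prdm14 was higher in both lines, while Klf4 (adjusted p = 0.152 in WT and 0.0814 in mutant) and Tbx3 (0.584 and 0.348) were not called (limma). Among the ESC markers, Zfp42 was lower in naïve cells (-0.94 in WT, adjusted p = 0.0105, and -1.29 in mutant, adjusted p = 0.00129). Nanog was higher in naïve WT cells (0.57, adjusted p = 0.0357) and not called in mutant cells (0.40, adjusted p = 0.138). Pou5f1, Sox2 and Esrrb were called in neither line.

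No SINE class was called in any comparison between the groups. Values are the deposited variance-stabilised values, which are on a log2 scale, and a class was called at a Benjamini-Hochberg adjusted p under 0.05 over the 939 tested classes (limma). Under this rule 0 of 32 SINE classes were called for WT against mutant in naïve cells, where 0% of all tested classes were called, and 0 of 32 in primed cells, where 0.319% were. Among retroviral repeats, the paper reports only IAPEz elements as different between the rescue lines, by its own test. In naïve cells IAPEz-int was at 17.54, 17.46 and 17.69 in WT against 16.32, 16.69 and 16.12 in mutant. It was not called here, the smallest adjusted p over all classes being 0.773 (limma). The 0 for SINEs in naïve cells thus came from a fit that also missed IAPEz-int. Between media, 0 of 32 were called in WT cells (2.34% of all classes) and 0 of 32 in mutant cells (3.41%). Under a replicate block the SINE counts were also 0, while the shares of all classes were 10% in WT and 10.3% in mutant cells. For the difference between media of the WT effect, 0 of 32 were called (0% of all classes). In each of these comparisons 0 of the 32 had an unadjusted p under 0.05 on the deposited scale without a block, and limma-voom on the recovered reads also called 0. Other scalings gave more for WT against mutant, with none called (limma). Scaled by the repeat total without rRNA, 8 of 32 in naïve and 4 in primed cells were under 0.05. Centring on the median class gave 4 and 5, gene size factors 3 and 1, and medians of ratios 2 and 0. With 3 libraries per group an exact permutation test of a single class cannot go below p = 0.1. Nothing in the labels ties the 3 libraries of a group to separate cultures, so the tests measure the spread between these libraries, which may be technical.

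Each SINE class held between 632 reads (ID) and 65687 reads (B3) in every library. The SD within groups had a median of 0.33 over the 32 classes, from 0.11 for B3A to 0.55 for B2_Mm1a. The 95% confidence intervals ran from -1.45 to 0.84 over all classes for WT against mutant in naïve cells, and from -1.29 to 0.60 in primed cells. A p that misses the threshold therefore leaves room for a difference of this size, and the plot of differences and intervals for WT against mutant shows that room for every class.

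**Figure D1:**
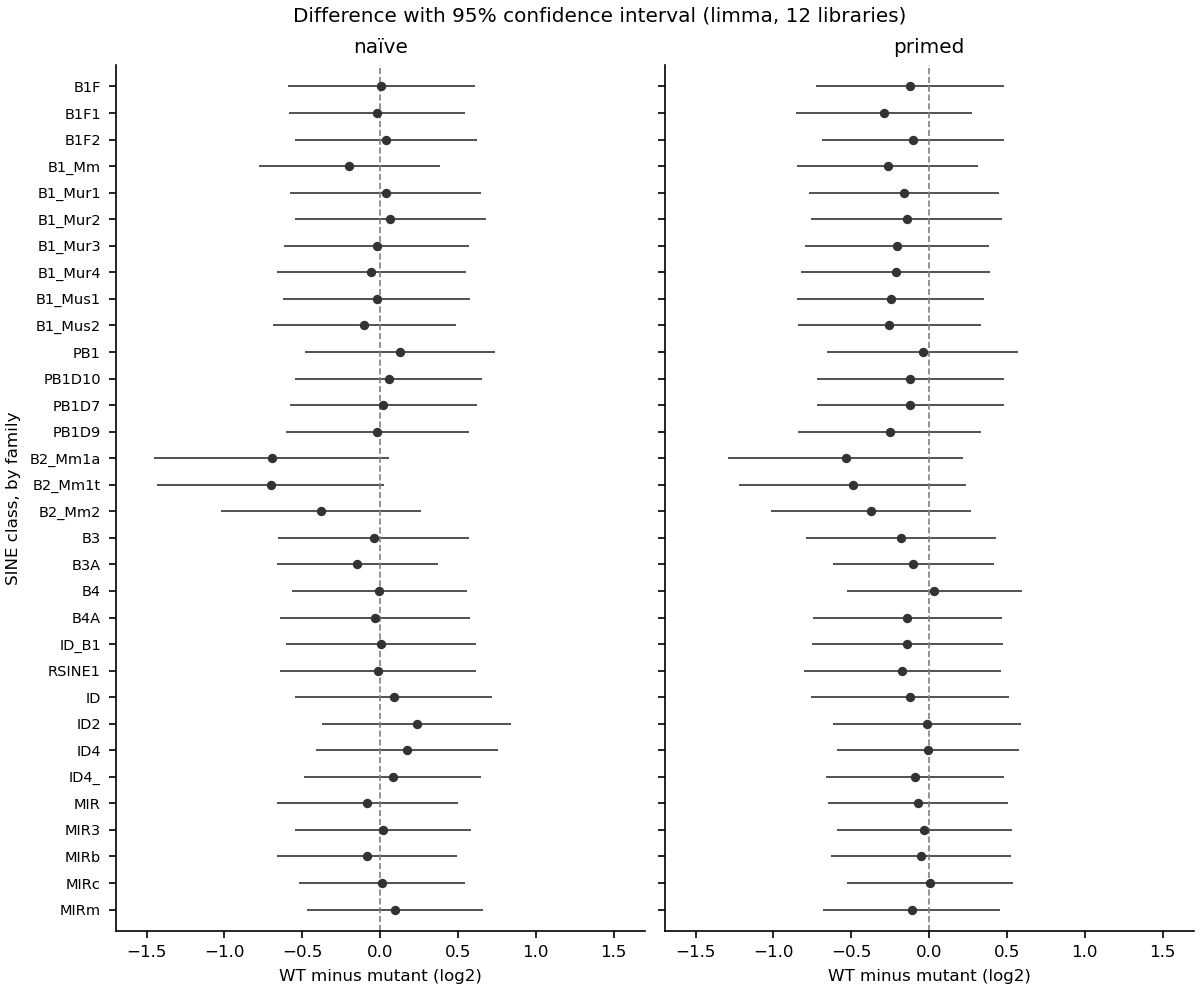
Difference between WT and mutant TET2 cells (x axis, log2) for the 32 SINE classes (y axis, ordered by family) in naïve and primed cells, with points for the fitted difference and bars for its 95% confidence interval. Every interval includes 0, and the B2 classes B2_Mm1a (-0.70 and -0.54), B2_Mm1t (-0.70 and -0.49) and B2_Mm2 (-0.38 and -0.37) lie farthest to the left in both media.

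Across the 32 classes the median difference between WT and mutant was -0.01 in naïve and -0.13 in primed cells, against 0.06 and -0.06 over all 939 tested classes. In naïve cells 15 of 32 classes had a positive difference and in primed cells 2 of 32, against 59.7% and 39.2% of all classes. Single libraries turned both medians. In naïve cells the SINE median was 0.16 with 26 of 32 positive without WT naïve replicate 2, 0.13 with 26 of 32 without mutant naïve replicate 3 and 0.0013 with 17 of 32 without WT naïve replicate 1, but -0.20 with 3 of 32 without WT naïve replicate 3 and -0.11 with 3 of 32 without mutant naïve replicate 2. In primed cells it was 0.11 with 22 of 32 positive without mutant primed replicate 3, and lay between -0.30 and -0.07 when any other primed library was left out. Other old repeats had medians of a like size, with 0.05 and -0.02 for the 6 tested L2 and L3 classes, 0.06 and -0.11 for the 90 tested classes of older L1 elements and -0.02 and -0.11 for the 97 tested MaLR classes. Between media the SINE median was 0.10 in WT and -0.02 in mutant cells, against 0.06 and -0.04 over all classes. The WT median became -0.09 with 9 of 32 positive without WT naïve replicate 3 and 0.26 without WT naïve replicate 2. The mutant median became 0.23 with 30 of 32 positive without mutant primed replicate 3, 0.09 without mutant naïve replicate 2 and -0.18 without mutant primed replicate 1. The difference between media of the WT effect had a median of 0.15 over SINEs and 0.11 over all classes. It too changed sign, to -0.10 with 4 of 32 positive without mutant primed replicate 3, to -0.04 without WT naïve replicate 3 and to -0.29 with 2 of 32 positive without both of these libraries.

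The classes with the highest mean in 4 of the families, B1_Mus1, PB1D10, ID_B1 and MIRb, moved together from library to library. B1_Mus1, a young B1 subfamily, was at 14.68, 14.48 and 15.20 in WT naïve replicates 1 to 3, at 14.72, 14.64 and 15.07 in mutant naïve, at 14.53, 14.59 and 14.92 in WT primed and at 14.68, 14.69 and 15.41 in mutant primed. Replicate 3 was highest in every group, and all 4 groups overlapped. PB1D10, an ancestral B1-like element, was at 14.40, 14.04 and 14.79 in WT naïve, at 14.34, 14.13 and 14.59 in mutant naïve, at 14.17, 14.13 and 14.46 in WT primed and at 14.06, 14.19 and 14.88 in mutant primed. ID_B1, a composite of ID and B1 sequence, was at 15.02, 14.61 and 15.35 in WT naïve, at 14.98, 14.74 and 15.24 in mutant naïve, at 14.77, 14.74 and 15.12 in WT primed and at 14.69, 14.82 and 15.53 in mutant primed. Both followed B1_Mus1 in having replicate 3 highest in each group. MIRb, an element shared by mammals and too old to move today, was at 12.62, 12.31 and 12.96 in WT naïve, at 12.65, 12.48 and 13.01 in mutant naïve, at 12.41, 12.23 and 12.63 in WT primed and at 12.17, 12.29 and 12.96 in mutant primed. These values are not per length or per genomic copy, so they rank no class against another.

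Replicate 3 was the highest library of its group for most SINE classes, namely for 30 of 32 in WT naïve, 28 in mutant naïve, 29 in WT primed and 30 in mutant primed. B2_Mm1a and B2_Mm1t were exceptions in mutant naïve cells, where replicate 3 was their lowest library. Replicate 3 also had the lowest rRNA share of each group, with 37.7%, 68.8%, 76.3% and 46.7% against 74.3% to 88.1% in the other replicates. The part of the rRNA share in these levels was not tested. When the recovered reads were scaled by medians of ratios over the repeat classes in place of the deposited factors, the median SD within groups over the 32 classes was 0.096, against 0.33 on the deposited scale. For B4 and B3A it rose, from 0.25 to 0.57 and from 0.11 to 0.39, and for B2_Mm1a it was 0.53 against 0.55. The ratio of B1_Mus2 to B1_Mus1 reads, which does not depend on scaling, lay between 0.854 and 0.971 in all 12 libraries.

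**Figure D2:**
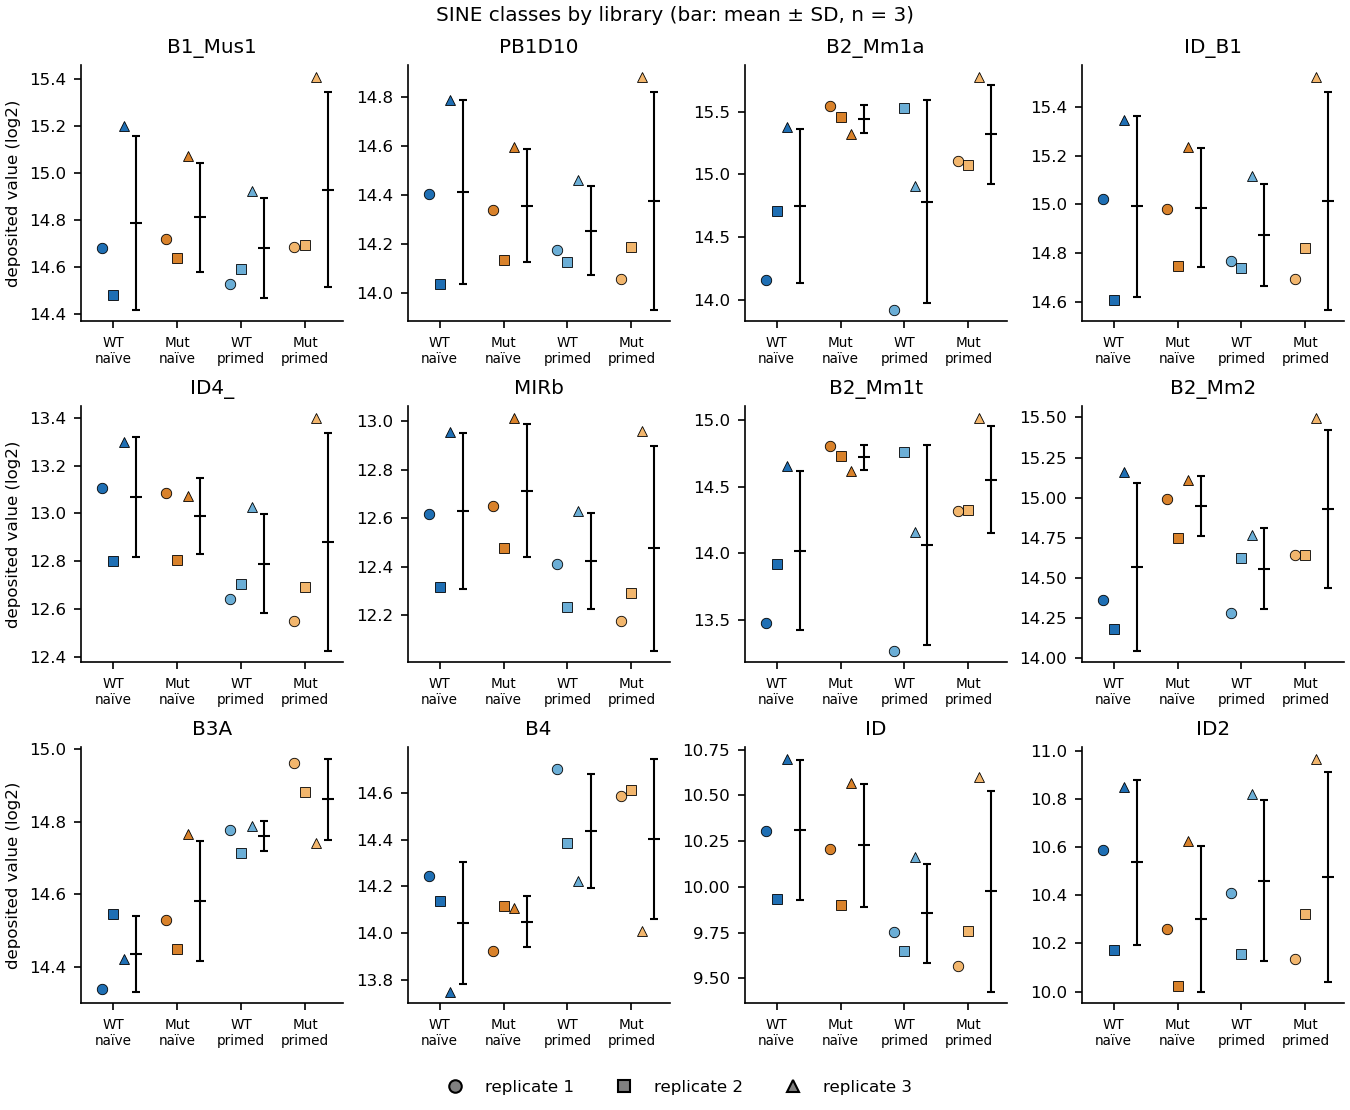
Deposited values (y axis, log2) of 12 SINE classes in the 4 groups (x axis), with circles, squares and triangles for replicates 1, 2 and 3 and a bar for the mean ± SD (n = 3). Replicate 3 is the highest library in each group for B1_Mus1, PB1D10, ID_B1 and MIRb, while B4 is the lowest of its group in WT naïve and mutant primed replicate 3, and B2_Mm1a spreads from 13.92 to 15.53 within WT primed alone.

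The B2 classes showed the largest differences between WT and mutant, all of them toward lower values in WT and none past the test. B2_Mm1a was at 14.15, 14.71 and 15.38 in WT naïve against 15.55, 15.46 and 15.32 in mutant naïve, and at 13.92, 15.53 and 14.91 in WT primed against 15.10, 15.08 and 15.78 in mutant primed. The groups overlapped in both media, and WT replicate 1 was the lowest library in each. The difference was -0.70 ± 0.36 (SE) in naïve cells (adjusted p = 0.999) and -0.54 ± 0.36 in primed cells (adjusted p = 0.996). It became -0.40 without WT naïve replicate 1 and -0.10 without WT primed replicate 1, and -0.91 without WT primed replicate 2.

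B2_Mm1t was at 13.47, 13.92 and 14.66 in WT naïve against 14.81, 14.74 and 14.62 in mutant naïve, and at 13.27, 14.76 and 14.16 in WT primed against 14.31, 14.33 and 15.02 in mutant primed. Its difference was -0.70 ± 0.35 in naïve cells (adjusted p = 0.999) and -0.49 ± 0.35 in primed cells (adjusted p = 0.996). The naïve value became -0.43 without WT naïve replicate 1, and the primed value -0.09 without WT primed replicate 1, -0.26 without mutant primed replicate 3 and -0.84 without WT primed replicate 2. B2_Mm2 was at 14.36, 14.18 and 15.16 in WT naïve against 14.99, 14.75 and 15.11 in mutant naïve, and at 14.28, 14.63 and 14.77 in WT primed against 14.65, 14.65 and 15.50 in mutant primed. Its difference was -0.38 ± 0.31 in naïve (adjusted p = 0.999) and -0.37 ± 0.31 in primed cells (adjusted p = 0.996). It became -0.19 without WT naïve replicate 2 and -0.68 without WT naïve replicate 3, and in primed cells -0.23 without WT primed replicate 1 and -0.09 without mutant primed replicate 3. Without the 2 libraries of lowest rRNA share the naïve difference was -1.03 ± 0.26 for B2_Mm1t (adjusted p = 0.0406), the 1 SINE call in that fit for this comparison (0.639% of all classes), and -1.01 ± 0.27 for B2_Mm1a (adjusted p = 0.0559). The primed difference of B2_Mm1a in the same fit was -0.31 ± 0.27 (adjusted p = 0.912). Of the 2 libraries left out, only WT naïve replicate 3 is part of the naïve comparison. Without it alone the B2_Mm1t difference was also -1.03, and the smallest adjusted p of a SINE class was 0.592 (limma). The mutant primed library enters the naïve comparison only through the shared estimate of spread. The 3 B2 classes share sequence, and reads with several places in the genome were assigned at random, so they are not independent of each other.

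Ratios of reads within a library set the B2 classes against B1_Mus1 without any scaling. These ratios were chosen after the values were seen. Reads of B2_Mm1a per B1_Mus1 read were 0.693, 1.17 and 1.13 in WT naïve against 1.77, 1.77 and 1.19 in mutant naïve, so the 2 groups did not overlap. In primed cells they were 0.656, 1.92 and 0.988 in WT against 1.34, 1.31 and 1.29 in mutant, so WT lay on both sides of mutant. On this scale 4 of 31 SINE classes (B1_Mm, B2_Mm1a, B2_Mm1t and B2_Mm2) were lower in every WT naïve library than in every mutant naïve library, against 3.09% of all classes, and 0 of 31 in primed cells, against 0.64%. The classes higher in every WT library were 2 of 31 in naïve cells (9.49% of all classes) and 11 of 31 in primed cells (19.3%). On the deposited scale 0 of 32 classes were free of overlap in either medium, against 5.22% of all classes in naïve and 3.41% in primed cells. Scaled by medians of ratios, 7 of 32 were lower and 1 higher in every WT naïve library (5.64% and 6.71% of all classes), the 7 being B1_Mm, B1_Mur4, B2_Mm1t, B2_Mm2, B3, MIR and MIRb. In primed cells 5 were lower and 0 higher on that scale (4.58% and 8.2%), namely B1F1, B1_Mur1, B1_Mur4, B1_Mus1 and RSINE1, and none of the classes so named is past the test of differences. Reads of B2_Mm1a per B2_Mm1t read stayed between 1.57 and 1.73 in all libraries, and reads of B2_Mm1a per B2_Mm2 read ran from 0.778 to 1.87.

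**Figure D3:**
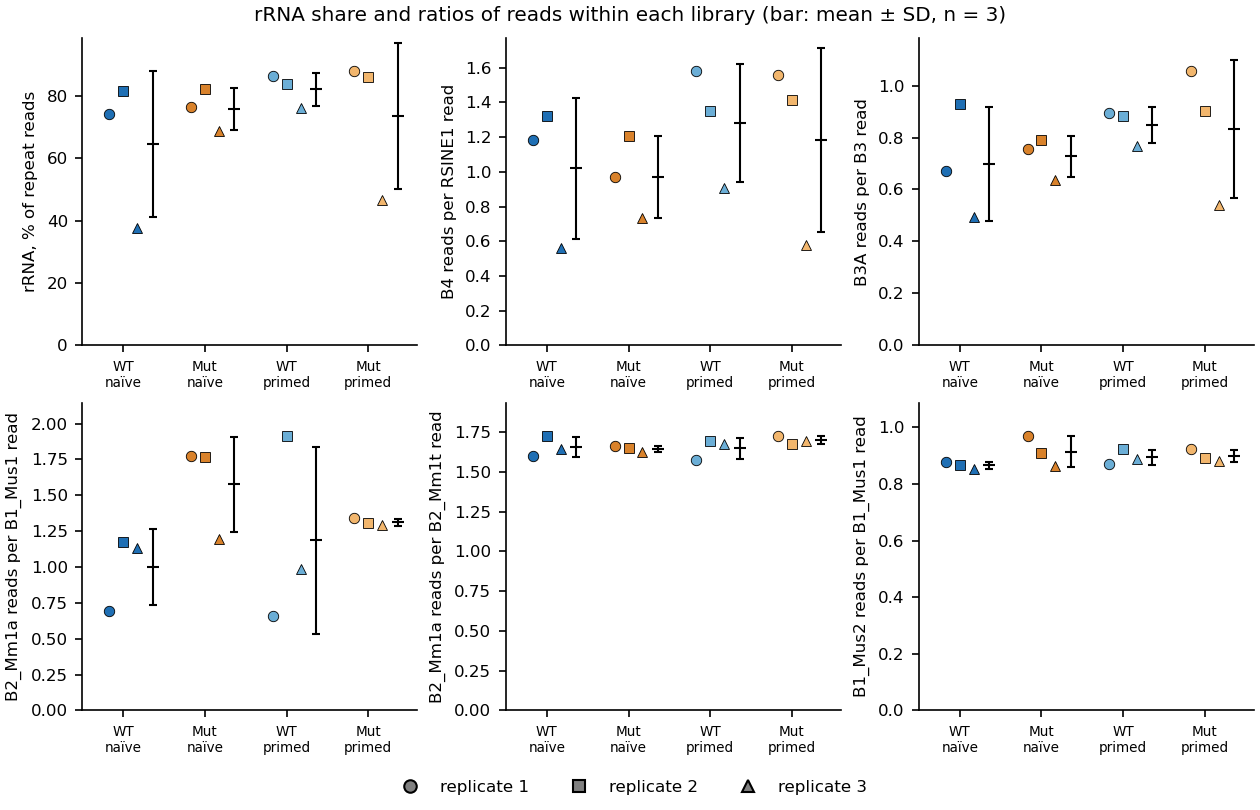
Share of rRNA among repeat reads and 5 ratios of reads within each library (y axes, from 0) in the 4 groups (x axis), with circles, squares and triangles for replicates 1, 2 and 3 and a bar for the mean ± SD (n = 3). B4 reads per RSINE1 read are lowest, at 0.560 and 0.576, in the 2 libraries of lowest rRNA share, and B2_Mm1a reads per B1_Mus1 read are lowest in replicate 1 of both WT groups.

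B4 moved against most other SINE classes from library to library. It was at 14.24, 14.14 and 13.75 in WT naïve, at 13.92, 14.12 and 14.11 in mutant naïve, at 14.70, 14.39 and 14.22 in WT primed and at 14.59, 14.61 and 14.01 in mutant primed. B4 was the lowest of its group in both libraries of lowest rRNA share, in which most other SINE classes were highest. Its naïve minus primed difference was -0.39 ± 0.27 in WT (adjusted p = 0.758) and -0.35 ± 0.27 in mutant cells (adjusted p = 0.865), and ran from -0.50 to -0.25 and from -0.55 to -0.25 without each library in turn. B4 reads per RSINE1 read were 1.18, 1.32 and 0.560 in WT naïve, 0.969, 1.21 and 0.733 in mutant naïve, 1.58, 1.35 and 0.910 in WT primed and 1.56, 1.41 and 0.576 in mutant primed. In each group the replicate with the lowest ratio was also the replicate with the lowest rRNA share. B4A, a subfamily of B4, varied less, with 0.665 to 0.851 reads per RSINE1 read. Its ratio was also the lowest of its group in the 2 libraries of lowest rRNA share (0.696 and 0.665), but not in replicate 3 of the other groups.

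B3A was at 14.34, 14.55 and 14.42 in WT naïve, at 14.53, 14.45 and 14.77 in mutant naïve, at 14.78, 14.71 and 14.79 in WT primed and at 14.96, 14.88 and 14.74 in mutant primed. It was lowest of its group in mutant primed replicate 3, between the others in WT naïve replicate 3, and highest in replicate 3 of the other groups, as most classes were. In WT cells every naïve library was below every primed library, the 1 such class of 32 on the deposited scale, against 14.4% of all classes without overlap between media in WT and 11.4% in mutant cells, where 0 of 32 were. The naïve minus primed difference of B3A was -0.32 ± 0.25 in WT (adjusted p = 0.804) and -0.28 ± 0.25 in mutant cells (adjusted p = 0.951). B3A reads per B3 read ran from 0.493 in WT naïve replicate 3 and 0.538 in mutant primed replicate 3 to 1.06 in mutant primed replicate 1. The small nuclear RNA 7SK, a Pol III product without a poly(A) tail, was also lowest in WT naïve replicate 3 and mutant primed replicate 3, with 903 and 406 reads against 1504 to 4576 in the others. On the deposited scale 7SL RNA was lowest of its group in both libraries (10.87 and 10.06). The small rodent 4.5S RNA (8.68 and 8.92) and BC1 (11.22 and 11.26) went the other way and were highest of their group in both. The part of poly(A) selection in the reads of B4 and B3A was not tested.

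Between media the ID class had the smallest p in WT cells and B4 in mutant cells. ID was at 10.31, 9.93 and 10.70 in WT naïve, at 10.21, 9.90 and 10.57 in mutant naïve, at 9.75, 9.65 and 10.16 in WT primed and at 9.57, 9.76 and 10.60 in mutant primed. The naïve minus primed difference was 0.46 ± 0.31 in WT (adjusted p = 0.753) and 0.25 ± 0.31 in mutant cells (adjusted p = 0.995), with overlap in both. The WT value became 0.26 without WT naïve replicate 3. Scaled by medians of ratios, the difference in WT was 0.37 ± 0.10 (adjusted p = 0.0326), the 1 SINE class called between media on that scale, on which 9.27% of all classes were called in WT. Reads of ID per B1_Mus1 read were 0.0477, 0.0423 and 0.0440 in WT naïve against 0.0361, 0.0321 and 0.0366 in WT primed, and 0.0435, 0.0371 and 0.0438 in mutant naïve against 0.0285, 0.0323 and 0.0355 in mutant primed. Neither line overlapped between media on this ratio, and with ID 4 of 31 SINE classes in WT and 11 of 31 in mutant cells were higher in every naïve library, against 15.1% and 18.3% of all classes. The classes lower in every naïve library were 2 of 31 in WT and 0 of 31 in mutant cells (11.7% and 6.93% of all classes). Scaled by medians of ratios, 4 of 32 were higher and 1 lower in every naïve WT library (15.7% and 11.4%), and 4 were higher and 3 lower in every naïve mutant library (12.7% and 11.1%). ID and PB1 were higher and RSINE1 lower in both lines on that scale.

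The other ID classes were less far apart between media. ID4_, the ID class of highest mean, was at 13.11, 12.80 and 13.30 in WT naïve, at 13.09, 12.81 and 13.07 in mutant naïve, at 12.64, 12.70 and 13.03 in WT primed and at 12.55, 12.69 and 13.40 in mutant primed. Its naïve minus primed difference was 0.28 ± 0.27 in WT (adjusted p = 0.898) and 0.11 ± 0.27 in mutant cells (adjusted p = 0.995). ID2 was at 10.59, 10.17 and 10.85 in WT naïve, at 10.26, 10.02 and 10.62 in mutant naïve, at 10.41, 10.15 and 10.82 in WT primed and at 10.14, 10.32 and 10.97 in mutant primed. ID2 differed by 0.08 in WT and -0.17 in mutant cells, so the ID classes of mutant cells did not share a sign. For MIRb, the class with the third smallest p in mutant cells, the naïve minus primed difference was 0.24 ± 0.28 (adjusted p = 0.989). It became 0.09 without mutant naïve replicate 3 or mutant primed replicate 1, 0.15 without mutant primed replicate 2 and 0.48 without mutant primed replicate 3.

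**Figure D4:**
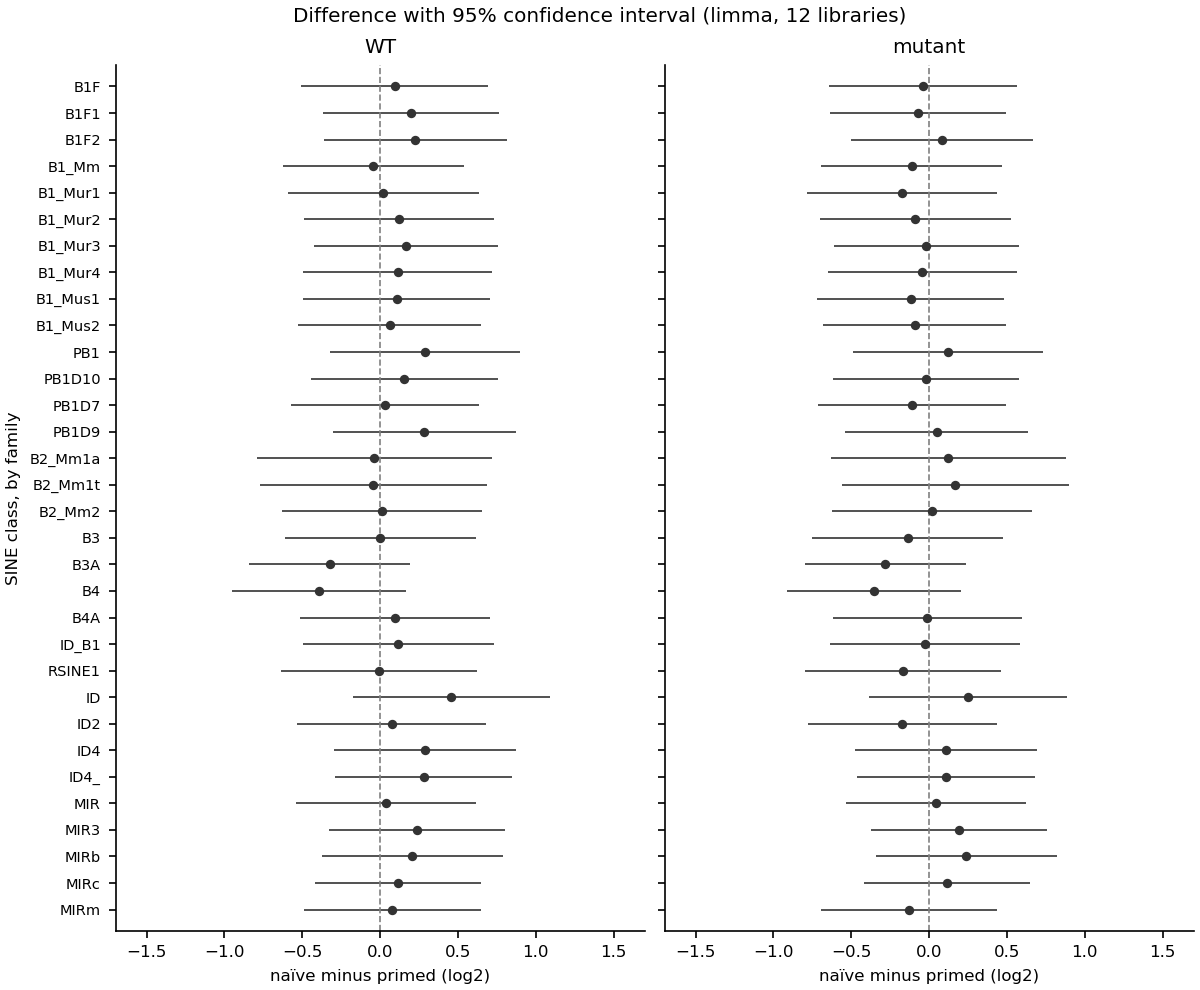
Difference between naïve and primed cells (x axis, log2) for the 32 SINE classes (y axis, ordered by family) in WT and mutant TET2 cells, with points for the fitted difference and bars for its 95% confidence interval. Every interval includes 0, with B4 (-0.39 and -0.35) and B3A (-0.32 and -0.28) farthest to the left in both lines and ID (0.46) farthest to the right in WT.

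The difference between media of the WT effect was small beside its error for every SINE class. It was 0.27 ± 0.38 for B1F1, 0.25 ± 0.41 for ID2 and 0.24 ± 0.40 for PB1D9, the classes of smallest p, each with an adjusted p of 0.998. B1F1 was at 13.00, 12.66 and 13.35 in WT naïve, at 13.07, 12.80 and 13.20 in mutant naïve, at 12.70, 12.70 and 13.02 in WT primed and at 12.87, 12.93 and 13.50 in mutant primed. PB1D9 was at 13.91, 13.56 and 14.35 in WT naïve, at 14.02, 13.74 and 14.11 in mutant naïve, at 13.50, 13.62 and 13.84 in WT primed and at 13.63, 13.71 and 14.38 in mutant primed. Both had all groups overlapping. All 3 differences changed sign without the 2 libraries of lowest rRNA share.

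Summed over the 32 classes, SINE reads took a smaller share in WT than in mutant cells. Of the repeat reads left without rRNA, SINEs made up 22.2%, 22.2% and 22.4% in WT naïve against 28.6%, 26.4% and 28.5% in mutant naïve, and 24.5%, 25.9% and 24.2% in WT primed against 30.3%, 28.4% and 27.0% in mutant primed. WT and mutant did not overlap in either medium. The share rests on what else is in the total, and IAP, the endogenous retrovirus family that the study follows, moved the other way. IAP classes took 12.3%, 13.3% and 9.79% in WT naïve against 6.18%, 8.17% and 4.79% in mutant naïve, and 5.61%, 6.88% and 7.34% in WT primed against 1.69%, 1.98% and 2.62% in mutant primed. Without IAP in the total the SINE share was 24.8% to 25.6% in WT naïve against 28.8% to 30.5% in mutant naïve, without overlap, but 26.0% to 27.8% in WT primed against 27.7% to 30.8% in mutant primed, with overlap. Scaled by the total without rRNA, the median WT minus mutant difference of all tested classes was also below 0. It was -0.14 in naïve and -0.07 in primed cells, against -0.21 and -0.13 for SINEs. With IAP also left out, the naïve medians were -0.05 and -0.12. The part of the B2 classes in these shares was not tested.

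Set against the gene table, SINE reads per 1000 gene reads were 29.6, 29.5 and 36.6 in WT naïve against 34.8, 35.2 and 39.8 in mutant naïve, and 34.4, 37.0 and 36.9 in WT primed against 38.7, 39.8 and 43.0 in mutant primed. Groups overlapped in naïve and not in primed cells, and replicate 3 was the highest naïve library in both lines. The 3 B2 classes gave 5.24 ± 1.58 (SD, n = 3) in WT naïve against 8.09 ± 0.46 in mutant naïve, and 6.33 ± 2.32 in WT primed against 8.08 ± 0.83 in mutant primed. The other 29 classes gave 26.6 ± 2.76 against 28.5 ± 3.23 in naïve and 29.8 ± 1.40 against 32.4 ± 1.48 in primed cells. Their libraries overlapped in naïve cells, with 24.4 to 29.7 in WT against 26.5 to 32.2 in mutant. In primed cells they did not, with 28.2 to 30.9 against 31.0 to 34.0. These sums were compared as values, with no test. Of SINE reads, the B2 and B3 family took 25.6% to 37.3%, B1 27.3% to 31.4%, the classes around B4 16.3% to 22.4%, PB1 9.55% to 12.3%, MIR 4.28% to 5.52% and ID 3.09% to 4.81%.

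**Figure D5:**
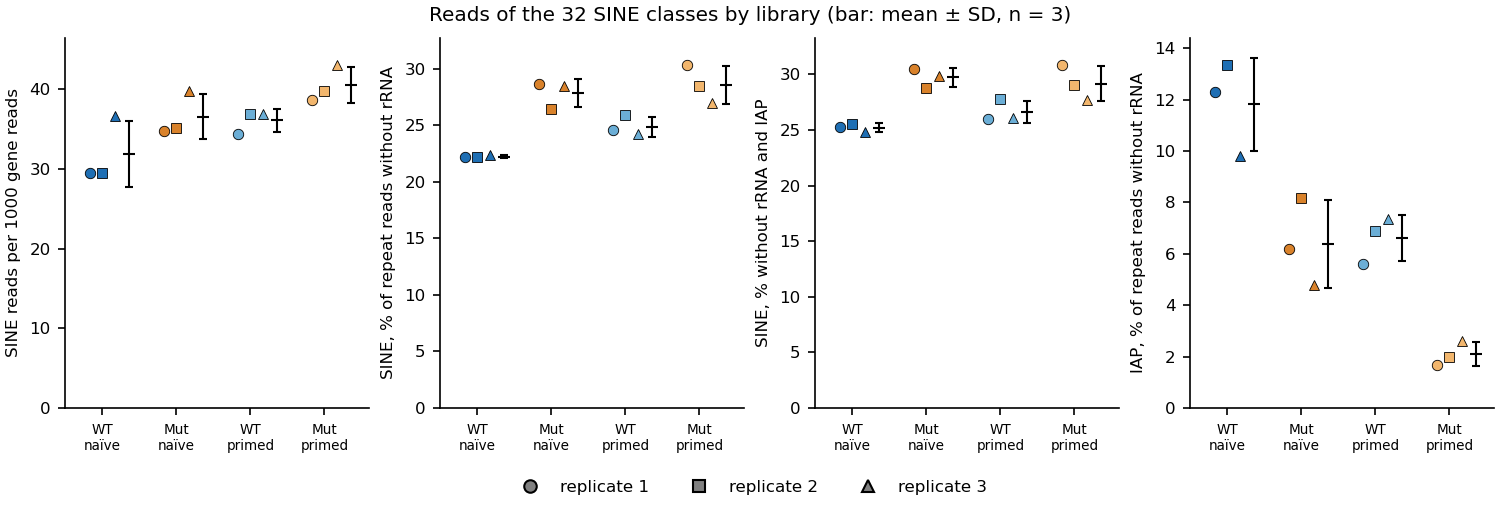
Reads of the 32 SINE classes per 1000 gene reads, as a share of repeat reads without rRNA and without rRNA and IAP, and the share of IAP (y axes, from 0) in the 4 groups (x axis), with circles, squares and triangles for replicates 1, 2 and 3 and a bar for the mean ± SD (n = 3). The SINE share without rRNA is 22.2% to 22.4% in WT naïve and 26.4% to 28.6% in mutant naïve, while the IAP share is 9.79% to 13.3% and 4.79% to 8.17%.

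Zscan4c and Zscan4d, near-identical genes whose reads may be split between them and which mark a two-cell-like state found in a few ESCs, together had fewer reads in every WT library than in any mutant library of the same medium. They gave 4.86 to 6.34 reads per 1000000 gene reads in WT naïve against 9.74 to 16.4 in mutant naïve, and 2.45 to 5.34 in WT primed against 9.63 to 53.2 in mutant primed. Zscan4d was lower in WT than in mutant primed cells by 1.99 ± 0.38 on the log2 scale (adjusted p = 0.0336). Zscan4c in primed cells (-1.60, adjusted p = 0.0537) and Zscan4c (-0.94, adjusted p = 0.291) and Zscan4d (-0.45, adjusted p = 0.611) in naïve cells were not called. The part of such cells in the SINE reads was not tested. The 3 primitive endoderm markers (Gata4, Gata6 and Sox17) summed to 1.58 to 5.95 reads per 1000000 gene reads in all groups. In bulk libraries fewer cells of a type and less RNA per cell cannot be told apart. Nor can Pol III transcripts of SINEs be told apart here from SINE sequence in the transcripts of host genes, because the counts pool all copies of a class, the libraries carry no strand, and poly(A) RNA was selected.

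The Pol III relatives of SINEs among the repeat classes were not called either. 7SL RNA, the ancestor of B1, had 1428, 2788 and 1470 reads in WT naïve, 3118, 3364 and 8346 in mutant naïve, 2543, 5283 and 4057 in WT primed and 4161, 4058 and 783 in mutant primed. It differed between WT and mutant by -0.85 ± 0.43 in naïve (adjusted p = 0.999) and 0.44 ± 0.43 in primed cells (adjusted p = 0.996). The primed value became -0.25 without mutant primed replicate 3, 0.07 without WT primed replicate 2 and 0.86 without mutant primed replicate 1. BC1, the relative of ID, differed by -0.14 ± 0.30 and -0.08 ± 0.30, with 907 to 3112 reads per library, and 4.5S RNA, a small rodent RNA, by 0.15 ± 0.31 and -0.20 ± 0.31. Of all 15 relatives tested, tRNA classes included, 0 were called for WT against mutant, for which 0 had an unadjusted p under 0.05 in either medium.

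Genes of the Pol III and SINE pathway were looked at in 4 lists of 55 genes in all, each of which passed the filter. For WT against mutant, 0 of 55 were called in naïve cells (0.0987% of all 14185 tested genes) and 0 of 55 in primed cells (0.254%), with 9 and 14 at an unadjusted p under 0.05 (limma), a level reached by 13.3% and 16.2% of all genes. Between media 11 of 55 were lower in naïve WT cells and 0 higher, and 12 of 55 were lower and 1 higher in naïve mutant cells. The 13 called in mutant cells became 5 without mutant naïve replicate 2, 7 without mutant primed replicate 2 and 8 without mutant naïve replicate 1. Of all genes, 35.9% were called between media in WT (17.3% lower, 18.6% higher) and 35.2% in mutant cells (16.9% lower, 18.3% higher). The shares of the lists were not tested against these. For the difference between media of the WT effect 0 of 55 were called (0% of all genes), with 1 at an unadjusted p under 0.05.

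Among the 17 genes listed as Pol III factors and regulators, 5 were lower in naïve WT cells and 6 in naïve mutant cells. Of all genes, 17.3% and 16.9% were lower. Gtf3c5, a subunit of TFIIIC, which binds the A and B boxes, was at 8.42, 8.55 and 8.51 in WT naïve and at 9.42, 9.31 and 9.32 in WT primed, and at 8.33, 8.10 and 8.38 in mutant naïve and at 9.42, 9.37 and 8.94 in mutant primed. Naïve and primed libraries did not overlap in either line. The difference was -0.86 ± 0.16 in WT (adjusted p = 0.000699) and -0.98 ± 0.16 in mutant cells (adjusted p = 0.000256). Of the other TFIIIC subunits, Gtf3c6 (-0.59 in WT, adjusted p = 0.0158, and -0.94 in mutant, adjusted p = 0.00071) and Gtf3c2 (-0.61, adjusted p = 0.00531, and -0.49, adjusted p = 0.0197) were lower in both lines. Gtf3c4 was called in mutant cells (-0.53, adjusted p = 0.0172) and not in WT (-0.31, adjusted p = 0.143). Gtf3c1 and Gtf3c3 were called in neither line, with -0.37 and 0.35 in WT and 0.02 and -0.03 in mutant cells. Brf2, a TFIIIB-related factor that serves Pol III genes without internal boxes, fell by 0.71 in WT (adjusted p = 0.00512) and by 0.57 in mutant cells (adjusted p = 0.0195).

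Of the 13 Pol III subunits, 2 were lower in naïve WT cells, while 3 were lower and 1 higher in naïve mutant cells. Of all genes, 17.3% were lower in naïve WT cells, while 16.9% were lower and 18.3% higher in naïve mutant cells. The counts called in this paragraph were not tested against these shares. Polr3d fell by 0.80 in naïve WT cells (adjusted p = 0.00569) and by 0.56 in naïve mutant cells (adjusted p = 0.0400). Polr3gl, the form of a Pol III subunit that Polr3g replaces in ESCs, was 0.89 ± 0.21 higher in naïve than in primed mutant cells (adjusted p = 0.00438), with 0.27 in WT (adjusted p = 0.34). Its reads were few, with 56, 46 and 64 in mutant naïve and 10, 11 and 18 in mutant primed libraries. Of 13 chromatin repressors, 3 were lower in each line. Trim28, the corepressor through which zinc finger proteins recruit SETDB1, was at 13.98, 13.87 and 13.95 in WT naïve and at 15.06, 14.70 and 14.87 in WT primed, and at 13.62, 13.37 and 13.98 in mutant naïve and at 14.90, 14.86 and 14.45 in mutant primed. It was lower in every naïve library, by -0.94 ± 0.19 in WT (adjusted p = 0.000974) and -1.08 ± 0.19 in mutant cells (adjusted p = 0.000341). Ctcf, an insulator protein that binds many B2 elements, fell by 0.54 in mutant cells (adjusted p = 0.0132), with -0.27 in WT (adjusted p = 0.184). Of 12 genes for SINE RNA binding and processing, 1 was lower in naïve WT cells (Srp68, part of the signal recognition particle) and 0 in mutant cells.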

How the data were processed

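Poly(A)-selected, unstranded mRNA-seq libraries were made from 12 samples. The authors trimmed reads (Trim Galore 0.3.3), aligned them to mm9 with TopHat2 (2.0.9), placing a read with several best hits at 1 of these by chance, and totalled them by gene and by RepeatMasker class over all copies. The authors deposited variance-stabilised counts from DESeq2, on a log2 scale, as 1 table for genes and 1 for repeats. A class's value thus depends on the size factors of its table, and random assignment can move reads between like classes. Whole reads were recovered from the deposited log2 values by inverting the transform, and all came out whole within 0.05 reads. Depth is the sum of these reads.

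Groups were fitted together in limma (3.58.1, R 4.3.3) with 4 group means over 12 libraries and a variance trend, for 5 contrasts, on classes or genes whose mean was at least 1 above the lowest value, with Benjamini-Hochberg adjustment over all of them. On simulated repeat data 39 of 50 changed classes were recovered and 3 others called. The changes put in were log2 differences of 1 or 2 in either direction, with no shift of whole libraries. Every simulated class had the same dispersion, unlike the classes of the data, so the recovered count does not give the sensitivity in these data. Recovery of differences as small as those of the SINE classes was not tested. Errors beside differences are standard errors of the fit. Values were given by library for the class of highest mean in each family and the 3 classes of smallest p in each comparison, and pathway genes by p, up to 5 per comparison. B3, RSINE1, B4A and B1_Mus2 were added for ratios, and Gtf3c1, Gtf3c3, Gtf3c4, Klf4 and Tbx3 for completeness, after the values were seen. The members and lists were chosen with earlier results of these data known. The labels do not say whether equal replicate numbers share a batch. Deviations from group means correlated between same-numbered WT and mutant libraries at 0.42, 0.29 and 0.49 in naïve cells. In primed cells the correlations were 0.05, -0.02 and 0.33. WT naïve and primed libraries gave 0.13, 0.16 and 0.30, and mutant ones 0.20, 0.05 and 0.20. Alternatives were other filters, scalings, limma-voom, a replicate block and leaving out each library. The alternatives with a repeat total without rRNA and IAP, and without the 2 libraries of lowest rRNA share, were chosen after seeing the data. 1 sequence is not reported here.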

Additional observations from a re-analysis of the deposited data

How the results depend on the processing

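The count of SINE classes called stayed at 0 in every comparison with other filters, without the variance trend, centred on the median class, scaled by gene size factors or by the repeat total without rRNA (with or without IAP), with limma-voom, with a difference over 1 required, and without each library in turn (0 to 0). The fit to the 6 libraries of the groups compared, not run for the difference between media, gave 0 in the others. The replicate block also gave 0 in all 5 comparisons. Of all classes, the count called between media moved more. It was 22 in WT and 32 in mutant cells, and became 94 and 97 with the replicate block, 90 and 79 centred on the median class, 87 and 83 with medians of ratios, 67 and 80 with the repeat total without rRNA, 82 and 86 with that total also without IAP, 53 and 57 with gene size factors, 57 and 72 without the 2 libraries of lowest rRNA share, 42 and 23 in the 6 libraries compared, and 8 to 23 and 11 to 46 without each library. Medians of ratios gave 1 for naïve against primed in WT (ID, 0.37). Leaving out the 2 libraries of lowest rRNA share gave 1 for WT against mutant in naïve cells (B2_Mm1t, -1.03) and reversed the difference between media of the WT effect for B1F1 (-0.10), ID2 (-0.15) and PB1D9 (-0.21). Without each library in turn that of PB1D9 ranged from -0.0030 (without mutant primed replicate 3) to 0.43, that of B1F1 from 0.07 to 0.44 and that of ID2 from 0.0021 to 0.43. The B2 differences kept their sign in every alternative, from -1.03 to -0.43 for B2_Mm1t in naïve and from -0.91 to -0.10 for B2_Mm1a in primed cells. Scaling by the repeat total without rRNA moved the median of all classes from 0.06 to -0.14 for WT against mutant in naïve cells, and that of SINEs to -0.21 with 1 of 32 positive. It also turned the SINE median for the media in WT to -0.09 and for the difference between media of the WT effect to -0.05. The naïve SINE median for WT against mutant was negative on the other scalings too. It was -0.10 with 4 of 32 positive centred on the median class and -0.07 with 7 by gene size factors. By medians of ratios it was -0.06 with 8 of 32 positive. The medians of all classes on these 3 scalings were -0.03, -0.001 and 0.02. Pathway genes called between media ranged from 5 to 13 in mutant and from 8 to 11 in WT cells without each library, with 13 in mutant and 10 in WT under the block. The cause of these changes was not tested.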
